A study of Mus musculus with 4 samples.

Results

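Cathepsins are proteases of lysosomes and secretory granules, and cystatins are small proteins that inhibit the cysteine cathepsins. The 9 genes described here, Ctsl, Ctsb, Ctsd, Ctss, Ctsc, Ctsw, Ctsz, Cst3 and Cst7, were taken by gene symbol, and all 9 were among the 32285 genes of the files. They were measured by droplet-based single-cell RNA sequencing (5' chemistry) of thymic cells that had been sorted for CD3 and for binding of CD1d loaded with the lipid PBS57, the combination that marks invariant natural killer T (iNKT) cells. The libraries came from the thymus of BALB/c mice (BALB/c 1 and BALB/c 2) and of B6 mice (B6 1 and B6 2), 2 inbred strains with no treatment named in the labels, and the labels give neither the age nor the number of mice. Whether the replicate libraries derive from different animals is not stated, and p-values measure the spread between libraries, which may be technical.

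Cysteine cathepsins of the papain family (Ctsl, Ctsb, Ctss, Ctsc, Ctsw and Ctsz) and the aspartic protease Ctsd are made as inactive precursors and become active in acidic compartments. In the mouse thymus cathepsin L is known for processing in cortical epithelial cells. Separately, mice without cathepsin L have few iNKT cells. Cathepsin C activates granzymes by removing a dipeptide, cathepsin W is known from natural killer and cytotoxic T cells, and cystatin F, the product of Cst7, is an inhibitor that reaches the same granules, whereas cystatin C, the product of Cst3, is mostly secreted.

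On the GRCm38 build with GENCODE vM21, Ctsl lies on the minus strand of chromosome 13 (64359337 to 64370890), Ctsd on the minus strand of chromosome 7 (142375911 to 142388038) and Ctsw on the minus strand of chromosome 19 (5465043 to 5468507). Ctss lies on the plus strand of chromosome 3 (95526786 to 95556403), Ctsb on that of chromosome 14 (63122462 to 63145923) and Ctsc on that of chromosome 7 (88278085 to 88310888). Ctsz is on the minus strand of chromosome 2 (174427493 to 174439039). Cst3 (148871722 to 148875692, minus strand) and Cst7 (150570415 to 150578944, plus strand) are both on chromosome 2. All 9 are annotated as protein-coding. A UMI stands for a distinct tagged RNA molecule assigned to the whole gene.

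Filtering kept 1864 and 1913 cells of BALB/c 1 and BALB/c 2, and 2328 and 8788 cells of B6 1 and B6 2. Total UMIs were 23124810 and 22798414 in the BALB/c libraries and 20406245 and 82904358 in the B6 libraries. Pairs of libraries shared 4 to 33 barcodes, at most 1.42% of the smaller library. The B6 libraries lay farther apart (chi-square per degree of freedom 92.2) than the BALB/c libraries (7.92), and the header of B6 2 names a later Cell Ranger version than the other 3 headers. Clusters were named from marker genes, with the 9 genes left out of the clustering. The BALB/c libraries held 286 and 616 iNKT1-like, 875 and 703 iNKT2-like and 323 and 184 iNKT17-like cells, and the B6 libraries held 1433 and 5075, 218 and 1348, and 68 and 168. Cells with markers of CD4 CD8 double-positive (DP) thymocytes numbered 91 and 169 in the BALB/c libraries and 121 and 231 in the B6 libraries. The sort label names iNKT cells, but few DP-like cells had a UMI of Trav11 (counted together with Trav11d), the variable segment of the invariant TCR alpha chain. Such a UMI was found in 0 of 91 and 0 of 169 BALB/c and in 0 of 121 and 1 of 231 B6 DP-like cells. iNKT0-like cells had one in 4.27% and 3.03% of BALB/c and 0.775% and 2.75% of B6 cells. In iNKT1-like cells, Trav11 had a UMI in 16.1% and 17.2% of BALB/c cells and in 18.3% and 8.16% of B6 cells. Depth differed too, with medians of 2529 to 2896 UMIs in DP-like and 6465.5 to 7133 in iNKT1-like cells. The part of depth in these shares was not tested. The strains fell into different clusters within several classes: 1 cluster held all 91 and 169 BALB/c DP-like cells and another held 110 of 121 and 229 of 231 B6 DP-like cells, and the main iNKT1-like and iNKT2-like clusters also differed by strain. The main BALB/c iNKT2-like cluster (862 and 688 cells) had Il4 and Ccr4 but also the gamma-delta T cell genes Sox13 and Tcrg-V5 among its 10 leading genes. At a finer cluster resolution (1.5), 545 and 398 BALB/c and 13 and 8 B6 cells formed a gamma-delta T-like cluster, and iNKT2-like cells numbered 311 and 280 in the BALB/c libraries and 99 and 539 in the B6 libraries.

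Levels are given below as CPM (UMI counts scaled to a common total) summed over the cells of a class in a library, without scaling factors. Across the 6 classes with at least 20 cells in every library, the 9 genes followed different orders. These orders are descriptions, without a test.

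**Figure D1:**
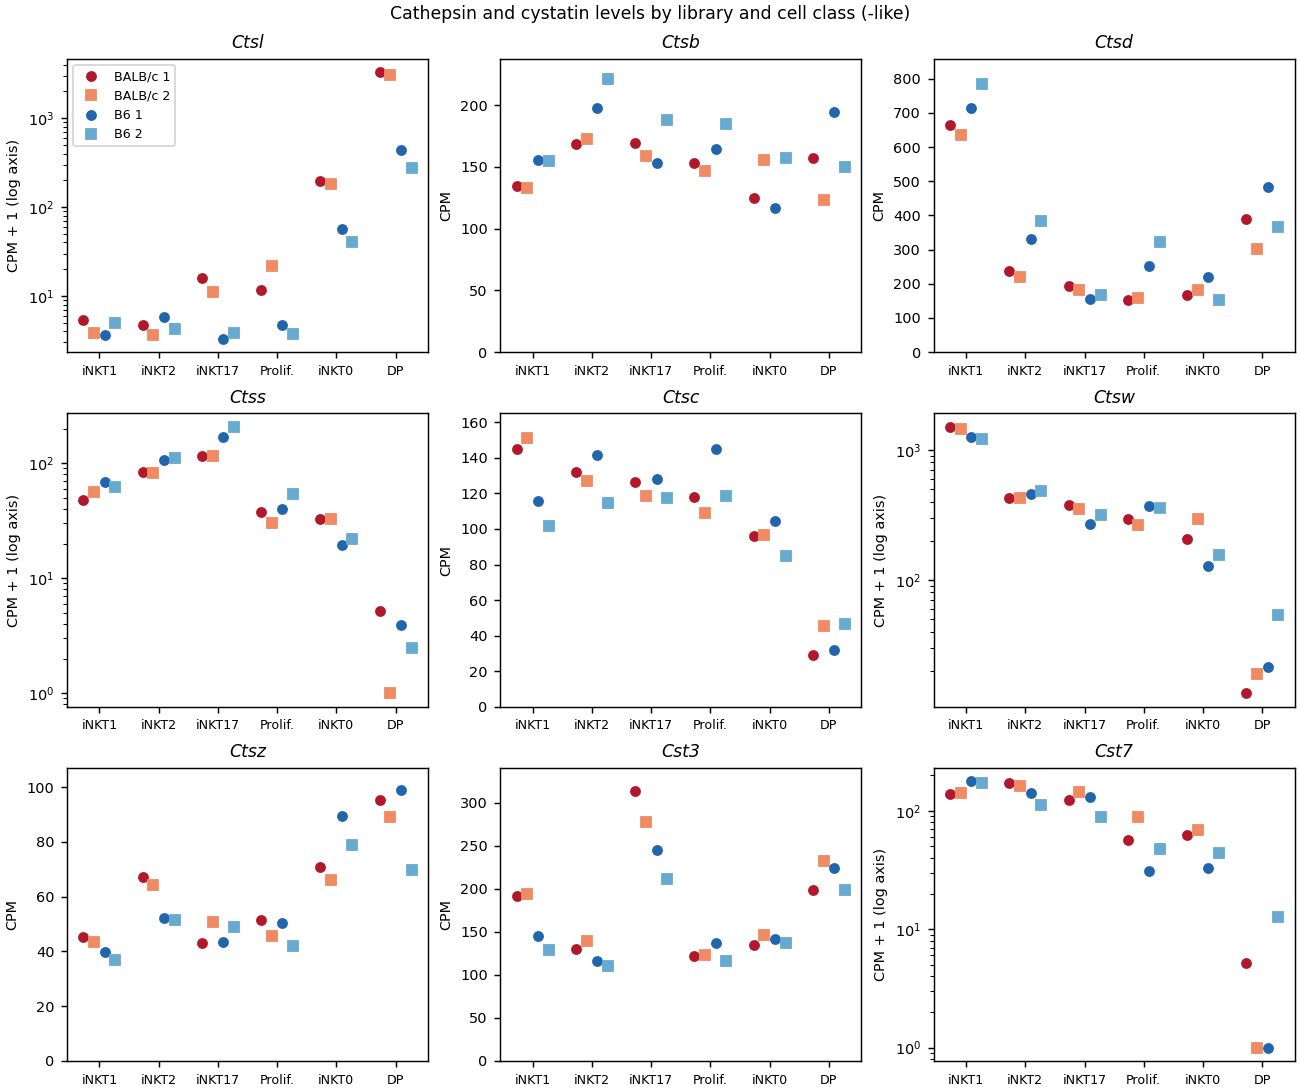
Level of each gene (CPM; CPM + 1 on a log axis for Ctsl, Ctss, Ctsw and Cst7) in iNKT1-like, iNKT2-like, iNKT17-like, proliferating-like, iNKT0-like and DP thymocyte-like cells; each point is 1 library, BALB/c in reds and B6 in blues. Ctsl is highest in DP-like cells, where the BALB/c libraries (3270 and 3040 CPM) lie above the B6 libraries (433 and 272 CPM), while Ctsw, Ctss and Cst7 are lowest there.

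Ctsl, the gene of cathepsin L, was highest in DP-like cells and next in iNKT0-like cells, named from markers of the early iNKT stage, and neither the ranges of DP-like and iNKT0-like cells nor those of iNKT0-like and proliferating-like cells overlapped over the 4 libraries. DP-like cells had 3270 and 3040 CPM in BALB/c and 433 and 272 CPM in B6. iNKT0-like cells had 196 and 183 CPM in BALB/c and 55.8 and 39.9 CPM in B6. iNKT1-like cells (2.61 to 4.32 CPM), iNKT2-like cells (2.64 to 4.76 CPM) and iNKT17-like cells (2.29 to 15.1 CPM) had little of it, and their ranges overlapped.

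Ctsw, the gene of cathepsin W, ran the other way. It was highest in iNKT1-like cells, the interferon-gamma producing subset, at 1503 and 1452 CPM in BALB/c and 1253 and 1204 CPM in B6. iNKT2-like cells followed at 427 and 425 CPM in BALB/c and 460 and 479 CPM in B6, without overlap with iNKT1-like cells. DP-like cells had 12.4 and 17.9 CPM in BALB/c and 20.4 and 52.3 CPM in B6. After each cell was thinned to 3000 UMIs, Ctsw had a UMI in 97.5% and 97.2% of BALB/c and 96.6% and 96.2% of B6 iNKT1-like cells, and in 67.5% and 66.97% of BALB/c and 69.2% and 69.6% of B6 iNKT2-like cells. Without thinning, 99.3% and 99.4% of BALB/c and 99.6% and 99.5% of B6 iNKT1-like cells had one, as did 95.8% and 95.6% of BALB/c and 96.3% and 94.96% of B6 iNKT2-like cells. DP-like cells, with far fewer UMIs (medians of 2529 to 2896, against 6465.5 to 7133 in iNKT1-like cells), had a Ctsw UMI in 3.30% and 5.33% of BALB/c and 4.96% and 13.4% of B6 cells without thinning.

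Ctsd, the gene of the aspartic protease cathepsin D, was also highest in iNKT1-like cells (635 to 785 CPM over the 4 libraries), above the 301 to 483 CPM of DP-like cells without overlap. iNKT17-like cells had the lowest mean, 175 ± 16.2 CPM (SD, n = 4), which did not differ from the 180 ± 28.7 CPM of iNKT0-like cells beyond their spread. The log2 ratio of iNKT1-like to iNKT2-like levels was 1.29 ± 0.25 for Ctsd and 1.59 ± 0.24 for Ctsw (SD, n = 4 libraries), and both ratios were above 0 in 4 of 4 libraries. With clusters cut at a finer resolution, the same ratios were 1.58 and 2.17.

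Ctss, the gene of cathepsin S, which degrades the invariant chain in antigen-presenting cells, was highest in iNKT17-like cells (115 and 114 CPM in BALB/c, 167 and 206 CPM in B6). iNKT2-like (81.4 to 109 CPM) and iNKT1-like cells (47.0 to 67.8 CPM) followed, and neither step overlapped. In DP-like cells Ctss had 1 and 0 UMIs in the BALB/c libraries and 1 and 1 in the B6 libraries. The 0 of 504312 UMIs in BALB/c 2 allows up to 5.95 CPM, for counting error only.

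Cst3, the gene of cystatin C, was also highest in iNKT17-like cells (314 and 277 CPM in BALB/c, 245 and 212 CPM in B6), and its range overlapped that of DP-like cells (199 to 232 CPM). The iNKT17-like over iNKT2-like log2 ratio was 1.06 ± 0.14 (SD, n = 4 libraries), above 0 in all 4. Cst7, the gene of cystatin F, averaged 156 ± 19.9 CPM in iNKT1-like, 146 ± 26.1 in iNKT2-like and 121 ± 23.6 in iNKT17-like cells (SD, n = 4), with overlapping ranges. DP-like cells had 1 and 0 Cst7 UMIs in BALB/c and 0 and 8 in B6.

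Ctsc, which activates granzymes, was even across iNKT1-like, iNKT2-like, iNKT17-like and proliferating-like cells (means of 123 to 129 CPM) and lowest in DP-like cells (29.0 to 46.5 CPM). Ctsz, a carboxypeptidase, had its highest mean in DP-like and its lowest in iNKT1-like cells, with 69.7 to 98.9 CPM in DP-like and 36.9 to 45.4 CPM in iNKT1-like cells. Ctsb, a cysteine cathepsin with endopeptidase and exopeptidase activity, had overlapping ranges between all neighbours in its order, from a mean of 190 ± 24.3 CPM in iNKT2-like to 139 ± 20.7 CPM in iNKT0-like cells (SD, n = 4).

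Strains were compared over library sums with edgeR's quasi-likelihood test and Benjamini-Hochberg adjustment over all genes tested, BALB/c over B6, and a gene was called at an adjusted p under 0.05. Standard errors (SE) were derived from the F statistic. In the sums over all kept cells, 3 of the 9 genes were called, against 7.39% of all 12882 genes tested. Ctsl was higher in BALB/c, as were 3.67% of all genes, and Ctsd and Ctsw were lower, as were 3.72%. Ctsl had 60.1 and 108 CPM in BALB/c and 13.4 and 7.56 CPM in B6 (log2 fold change 3.06, SE 0.45, adjusted p = 0.0375). Both BALB/c libraries lay above both B6 libraries. Ctsd had 257 and 286 CPM in BALB/c and 541 and 594 CPM in B6 (log2 -1.03, SE 0.10, adjusted p = 0.0198). Ctsw had 482 and 574 CPM in BALB/c and 895 and 877 CPM in B6 (log2 -0.71, SE 0.12, adjusted p = 0.0471). The groups did not overlap for either gene. For the other 6 genes log2 fold changes ran from -0.07 (Ctss) to 0.46 (Ctsz), with adjusted p of 0.0988 to 0.736.

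These sums mix classes in different shares. iNKT1-like cells, which had the most Ctsw and Ctsd, made up 15.3% and 32.2% of BALB/c cells and 61.6% and 57.7% of B6 cells. Within iNKT1-like cells Ctsw had a log2 fold change of 0.30 (SE 0.13, adjusted p = 0.288) and Ctsd of -0.17 (SE 0.11, adjusted p = 0.493). With a block for the replicate number, adjusted p over all cells was 0.101 for Ctsl, 0.0607 for Ctsd and 0.122 for Ctsw. Leaving out BALB/c 1 gave log2 fold changes of 3.42, -0.94 and -0.58, and leaving out BALB/c 2 gave 2.55, -1.11 and -0.85. None of these 3 calls held without either BALB/c library. No gene of all those tested was called in these 2 settings, so the loss is not particular to these 3 genes.

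**Figure D2:**
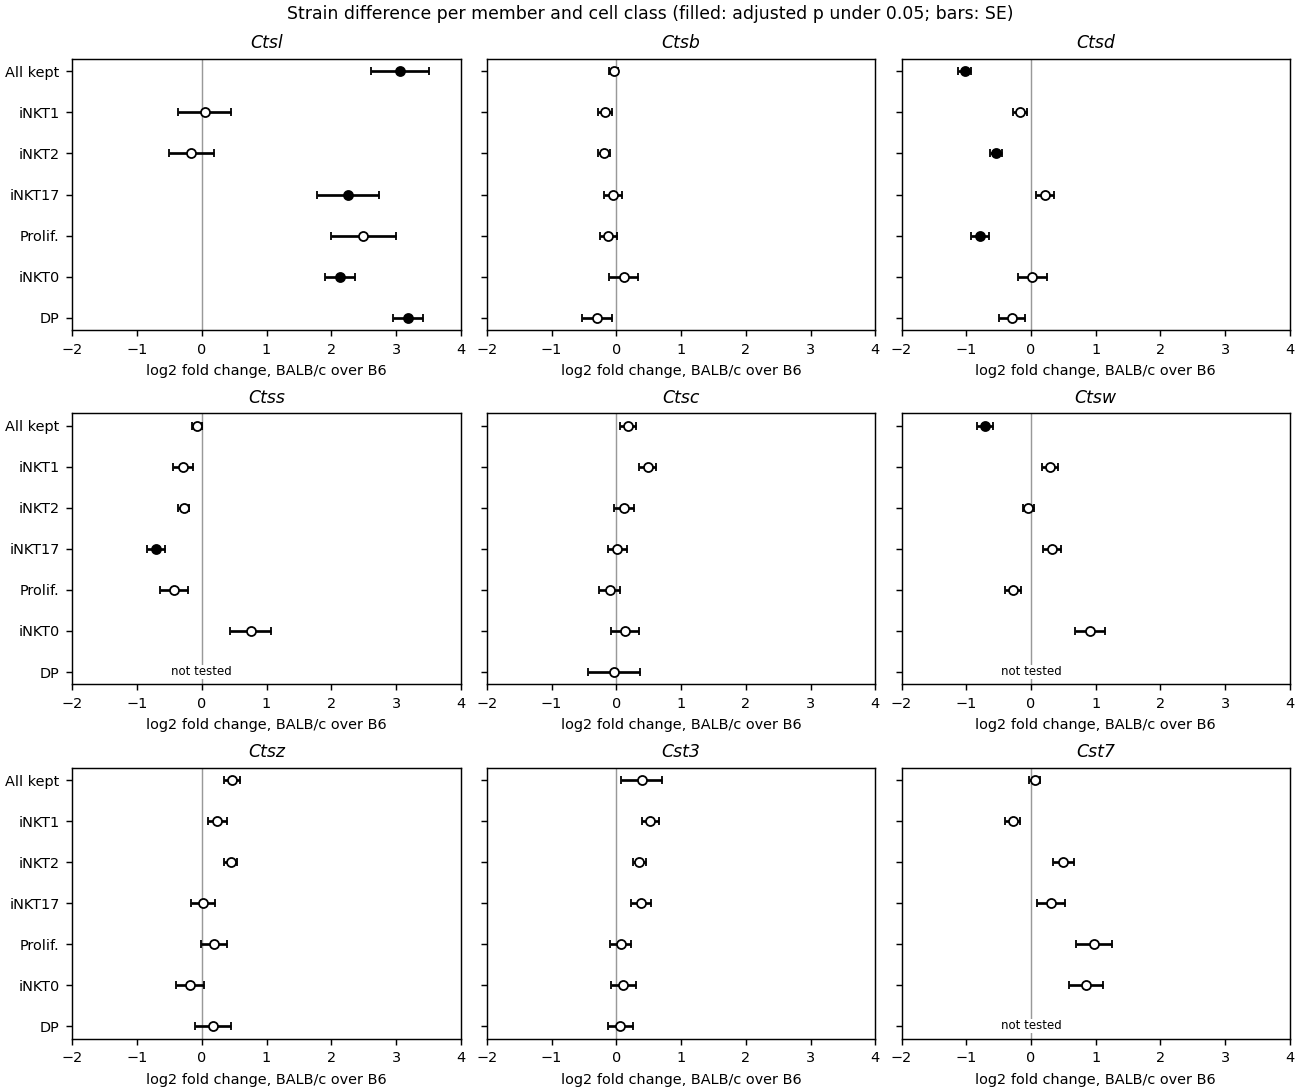
Log2 fold change of BALB/c over B6 for each gene in all kept cells and in 6 classes; points are edgeR estimates, bars are 1 SE and filled points have an adjusted p under 0.05. Ctsl lies at 2.13 to 3.19 in iNKT17-like, proliferating-like, iNKT0-like and DP-like cells and near 0 in iNKT1-like and iNKT2-like cells.

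The strain difference of Ctsl was found in some classes and not in others. In DP-like cells, the BALB/c libraries averaged 3155 ± 163 CPM and the B6 libraries 352 ± 114 CPM (SD, n = 2 each), with 789 and 1533 Ctsl UMIs in BALB/c and 149 and 187 in B6. The log2 fold change was 3.19 (SE 0.23, adjusted p = 1.87e-05). It was the only call among the 6 of the 9 genes tested there, against 1.95% of 6366 genes, and Ctss, Ctsw and Cst7 were too low to be tested. Across the 12 other settings tried the log2 fold change ran from 2.86 to 3.60 and adjusted p stayed at or below 0.0164. In iNKT0-like cells the log2 fold change was 2.13 (SE 0.24, adjusted p = 0.00374), again the only call among the 9, against 0.912% of 8223 genes. There the BALB/c libraries had 196 and 183 CPM and the B6 libraries 55.8 and 39.9 CPM, and the groups did not overlap. With cells assigned by marker score in place of clusters the iNKT0-like value was 1.56 (adjusted p = 0.0852). iNKT0-like cells were also split by Trav11, a split chosen after the data were seen. Those with a Trav11 UMI (7 and 4 BALB/c, 1 and 7 B6 cells) held 2 and 1 Ctsl UMIs in BALB/c (15.2 and 16.0 CPM). In B6 they held 0 and 3 (0 and 32.6 CPM), so the strains overlapped, at counts too low to compare them. These cells were also deep. The 7 and 4 BALB/c cells totalled 131855 and 62440 UMIs, against class medians of 2418.5 and 4023 UMIs per cell. The 7 cells of B6 2 totalled 91939, against a median of 3818. Cells without a Trav11 UMI held 172 and 154 Ctsl UMIs in BALB/c (228 and 196 CPM) and 33 and 68 in B6 (56.0 and 40.3 CPM).

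In iNKT17-like cells Ctsl had 56 and 23 UMIs (15.1 and 10.0 CPM) in BALB/c and 2 and 6 UMIs (2.29 and 2.87 CPM) in B6. The log2 fold change was 2.26 (SE 0.48, adjusted p = 0.0272), and Ctsl and Ctss were the 2 genes of the 9 called, against 4.93% of 9482 genes. DESeq2 gave an adjusted p of 0.194 and scaling by library size only 0.0510, and leaving out BALB/c 1 or B6 2 gave 0.348 and 0.0574. The summed level of the 10 DP markers in these cells was 64.8 and 63.5 CPM in BALB/c and 49.3 and 49.8 CPM in B6, with 4 to 8 of the 10 detected and Rag2 and Ptcra at 0 in every library, and its part in the result was not tested. In proliferating-like cells Ctsl had 10.7 and 20.7 CPM in BALB/c and 3.77 and 2.69 CPM in B6, but its log2 fold change of 2.49 (SE 0.50) did not pass the test (adjusted p = 0.0555). It passed in 6 of the 12 other settings, among them the replicate block (2.55, adjusted p = 0.00991), the finer resolution (4.14, adjusted p = 0.00480) and assignment by marker score (4.08, adjusted p = 0.0108). The last 2 settings hold other cells. The class had 42 and 47 BALB/c and 45 and 140 B6 cells. It had 70 and 81, and 89 and 188, at the finer resolution. By marker score it had 125 and 137, and 146 and 523. A proliferating-like cluster at the finer resolution (25 and 34 BALB/c, 29 and 32 B6 cells) had the DP markers as its second-ranked list. Its part in the larger values was not tested. In iNKT1-like cells (4.32 and 2.82 CPM in BALB/c, 2.61 and 3.99 CPM in B6) and iNKT2-like cells (3.67 and 2.64 CPM in BALB/c, 4.76 and 3.28 CPM in B6) the groups overlapped, with log2 fold changes of 0.04 (SE 0.41) and -0.16 (SE 0.35).

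The difference between strain effects was tested as an interaction, with iNKT2-like cells as the class compared against. For Ctsl the strain effect exceeded that of iNKT2-like cells by a log2 value of 3.43 in DP-like cells (SE 0.26, adjusted p = 3.43e-35), in iNKT17-like cells by 2.33 (SE 0.57, adjusted p = 0.0173) and in iNKT0-like cells by 2.30 (SE 0.32, adjusted p = 0.00107). The share of all genes called was 2.83%, 4.01% and 1.32% in these 3 interactions. The DP-like and iNKT0-like interactions were chosen after the data were seen. The very small DP-like p-value rests on a spread pooled over all genes, so it does not measure the spread of Ctsl between the 4 libraries alone. In other settings the DP-like value ran from 2.86 to 3.67. The iNKT0-like value was 1.30 (adjusted p = 0.586) at the finer cluster resolution and 1.10 (adjusted p = 0.505) with cells assigned by marker score. The iNKT17-like value was 1.72 (adjusted p = 0.163) and 1.81 (adjusted p = 0.111) in these settings, and adjusted p was 0.206 without BALB/c 1 and 0.0541 without B6 2.

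**Figure D3:**
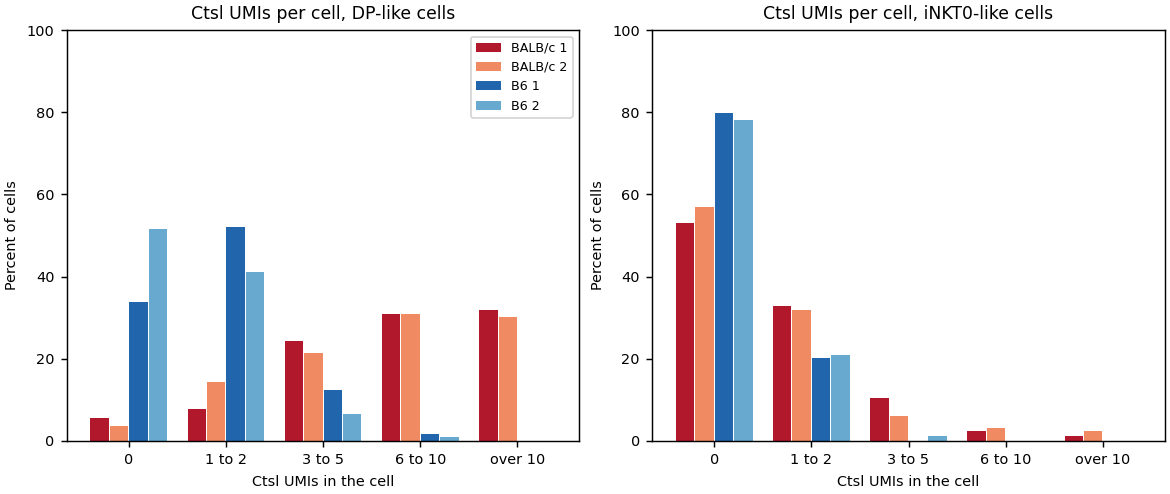
Percent of cells (y axis, from 0) by the number of Ctsl UMIs in the cell (x axis) in DP thymocyte-like (left) and iNKT0-like cells (right), with 1 bar per library. In DP-like cells, 31.9% and 30.2% of BALB/c cells have over 10 UMIs and no B6 cell does.

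Per cell, Ctsl had a UMI in 94.5% (exact 95% interval 87.6 to 98.2) and 96.4% (92.4 to 98.7) of BALB/c DP-like cells and in 66.1% (57.0 to 74.5) and 48.5% (41.9 to 55.1) of B6 DP-like cells. The intervals cover counting error only. The median cell had 8 and 7 Ctsl UMIs in BALB/c and 1 and 0 in B6. Median depths of these cells were similar, at 2529 and 2896 UMIs in BALB/c and 2655 and 2799 in B6. In iNKT1-like cells, at deeper medians of 6465.5 to 7133 UMIs, Ctsl had a UMI in 2.45% and 1.79% of BALB/c and 1.88% and 2.62% of B6 cells. Thinning to 3000 UMIs left 23 and 74 BALB/c and 43 and 89 B6 DP-like cells. The share with a Ctsl UMI then averaged 99.5% ± 0.131 over BALB/c libraries and 60.1% ± 14.9 over B6 libraries (SD, n = 2). The exact two-sided permutation test gave p = 0.333, the smallest that 2 libraries against 2 allow.

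The DP-like cells of the strains also differed in other DP markers, and whether they stand at the same stage was not tested. Of the 10 markers, Aqp11 had 133 and 111 CPM in BALB/c and 992 and 805 CPM in B6 (log2 -2.89, SE 0.20, adjusted p = 1.87e-05). The recombinase gene Rag1 (log2 -0.90, adjusted p = 0.0171), Arpp21 (-0.87, 0.0319) and Dntt (-0.78, 0.0412) were also lower in BALB/c. Rag2, Cd8a, Cd8b1, Ptcra, Ccr9 and Rmnd5a did not pass the test. The summed level of the 10 markers was 12547 and 11261 CPM in BALB/c and 14944 and 14780 CPM in B6, and its part in the Ctsl result was not tested. Within DP-like cells that had a Rag1 UMI, Ctsl had 3177 and 3105 CPM in BALB/c (72 and 120 cells) and 449 and 250 CPM in B6 (108 and 200 cells). Within those that had an Aqp11 UMI, it had 3074 and 3184 CPM in BALB/c (23 and 38 cells) and 438 and 255 CPM in B6 (98 and 183 cells). The strains did not overlap in either subset. Both subsets were chosen after the data were seen.

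**Figure D4:**
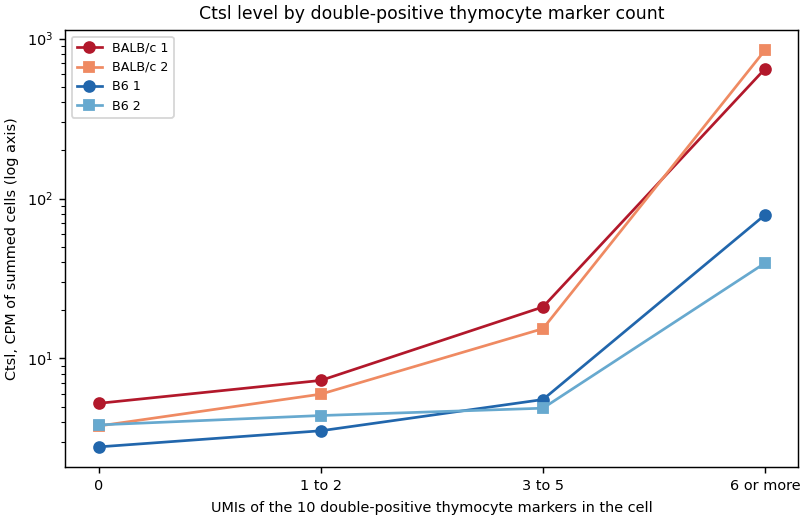
Ctsl level (CPM of summed cells, log axis) in all kept cells grouped by how many UMIs of the 10 DP markers the cell has; lines join the values of 1 library. With 0 marker UMIs the libraries lie between 2.80 and 5.24 CPM, and with 6 or more the BALB/c libraries (648 and 848 CPM) lie above the B6 libraries (79.0 and 39.5 CPM). Marker UMIs are not scaled by depth.

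Without using clusters, kept cells were also grouped by their UMIs of the 10 DP markers, a grouping chosen after the data were seen. In cells with none, Ctsl had 5.24 and 3.78 CPM in BALB/c and 2.80 and 3.84 CPM in B6, and the groups overlapped. In cells with 3 to 5 it had 21.0 and 15.4 CPM in BALB/c and 5.53 and 4.89 CPM in B6. In cells with 6 or more it had 648 and 848 CPM in BALB/c and 79.0 and 39.5 CPM in B6. The strains did not overlap in these last 2 groups. Marker UMIs were not scaled by depth, so deep cells of other classes can enter the group with 6 or more. In that group 21.5% and 22.4% of BALB/c and 24.0% and 44.2% of B6 cells had a Ctsw UMI. In each library this share was larger than in DP-like cells. The part of such cells in the strain difference was not tested. Of iNKT0-like cells, 92.7% and 87.9% of the BALB/c and 92.2% and 91.8% of the B6 cells had a DP marker UMI. The few iNKT0-like cells without one held 4 and 5 Ctsl UMIs (45.3 and 45.1 CPM) in BALB/c. In B6 they held 2 and 8 UMIs (35.5 and 54.1 CPM). There the strains overlapped, at counts too low to compare them.

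**Figure D5:**
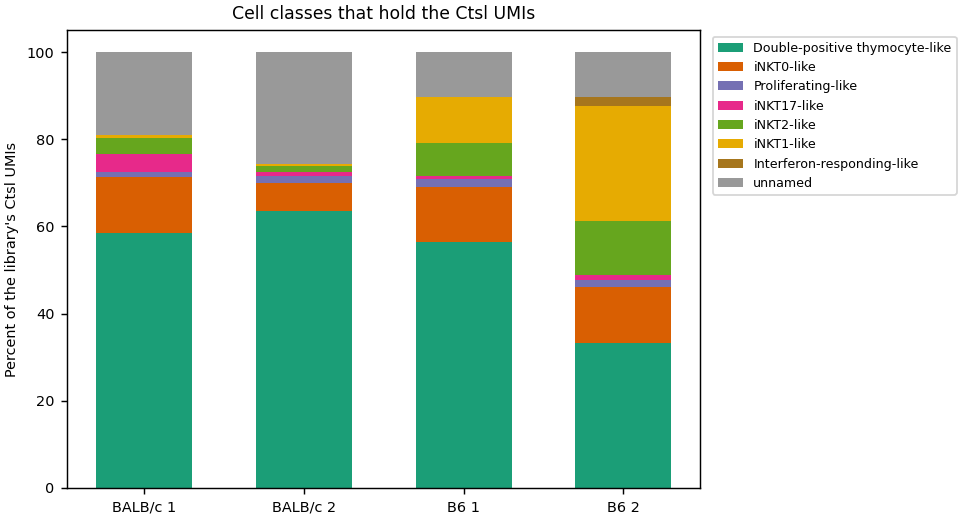
Percent of each library's Ctsl UMIs (y axis) held by each cell class; the stacks sum to 100. DP-like cells hold 58.4% and 63.6% in the BALB/c libraries and 56.4% and 33.3% in the B6 libraries.

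DP-like cells were 4.88% and 8.83% of BALB/c and 5.20% and 2.63% of B6 kept cells. They held 58.4% and 63.6% of the Ctsl UMIs of the BALB/c libraries and 56.4% and 33.3% of those of the B6 libraries. An unnamed cluster that carried proliferation markers and was led by B cell genes held all the Ctsl UMIs of unnamed cells in BALB/c (258 and 620), at 750 and 690 CPM in 32 and 53 BALB/c cells and 42.0 and 69.9 CPM in 43 and 32 B6 cells. At the finer resolution, only 2 of 19 and 4 of 33 BALB/c B cell-like cells had a Ctsl UMI. A proliferating-like cluster of 25 and 34 BALB/c cells there had the DP markers as its second-ranked list. How the unnamed cluster's Ctsl UMIs divide between B cells and cycling DP-like cells was not tested. Without the cells named DP-like, but with the unnamed cluster kept, the log2 fold change over the remaining cells was 2.62 (adjusted p = 0.0273). In the 3 mature classes (iNKT1-like, iNKT2-like, iNKT17-like) alone it was 0.49 (adjusted p = 0.320).

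Ctsd was lower in BALB/c iNKT2-like cells, at 236 and 221 CPM in BALB/c and 331 and 383 CPM in B6 (log2 -0.54, SE 0.09, adjusted p = 0.0348). It was the only call among the 9 there, against 7.49% of 11733 genes in either direction and 4.21% lower. With the replicate block adjusted p was 0.0971, without BALB/c 1 and without BALB/c 2 it was 0.532 and 0.585, and at the finer resolution it was 0.0755. Ctsd was again the only call among the 9 in proliferating-like cells (2.2% of 8786 genes). It had 153 and 159 CPM in BALB/c and 253 and 324 CPM in B6 there (log2 -0.79, SE 0.15, adjusted p = 0.0405). That call was lost without either BALB/c library (log2 -0.72 and -0.85), settings in which no gene was called in this class. In iNKT17-like cells the Ctsd estimate was 0.22 (SE 0.13, adjusted p = 0.446). The signed strain effect on Ctsd in iNKT17-like cells minus that in iNKT2-like cells was 0.75 (SE 0.11, adjusted p = 0.000223), where the estimates were 0.22 and -0.54. For iNKT1-like cells, with an estimate of -0.17, minus iNKT2-like cells it was 0.38 (SE 0.07, adjusted p = 0.000218), and that call was lost at the finer resolution (0.23, adjusted p = 0.0825). In these 2 planned interactions 4.01% and 10.8% of all genes were called, and 3 and 4 of the 9 genes.

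Ctss was lower in BALB/c iNKT17-like cells, at 115 and 114 CPM in BALB/c and 167 and 206 CPM in B6 (log2 -0.70, SE 0.14, adjusted p = 0.0185). Each BALB/c library was below each B6 library. The call was lost without BALB/c 1 (adjusted p = 0.309), without BALB/c 2 (0.281) and with DESeq2 (0.0621). Its strain effect was lower than in iNKT2-like cells by the interaction, at -0.47 (SE 0.12, adjusted p = 0.0173), and that call was lost without BALB/c 1 (0.282), BALB/c 2 (0.135) or B6 2 (0.400), with DESeq2 (0.621) and with scaling by library size only (0.0789). In iNKT1-like and iNKT2-like cells Ctss estimates of -0.29 and -0.28 did not pass (adjusted p = 0.378 and 0.128).

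In iNKT1-like cells none of the 9 genes was called by edgeR, whereas 4.62% of 10662 genes were. At an unadjusted p under 0.05 edgeR listed 3 of the 9 and 1889 of all genes, and DESeq2 also called 0 of the 9. Cst3 had 192 and 194 CPM in BALB/c and 145 and 129 CPM in B6 (log2 0.52, SE 0.13, adjusted p = 0.0891), and Ctsc had 145 and 151 CPM in BALB/c and 116 and 101 CPM in B6 (log2 0.48, SE 0.14, adjusted p = 0.121). With the replicate block both were called, at adjusted p of 0.0254 and 0.0383.

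Cst7 and Ctsw differed between iNKT1-like and iNKT2-like cells in their strain effects. Cst7 had 139 and 140 CPM in BALB/c and 177 and 170 CPM in B6 iNKT1-like cells. In iNKT2-like cells it had 170 and 162 CPM in BALB/c and 140 and 112 CPM in B6, so the libraries of the strains were ordered in opposite ways in the classes. The estimates were -0.28 (adjusted p = 0.262) and 0.50 (adjusted p = 0.135), and the interaction was -0.80 (SE 0.11, adjusted p = 1.55e-07), called in each of the 11 other settings tried, with the smallest size at the finer resolution (-0.42). For Ctsw the estimates were 0.30 and -0.04, and the interaction of 0.35 (SE 0.07, adjusted p = 0.000269) was also called in each of the 11, with the largest value by marker score (0.79). Ctsc had an interaction of 0.37 (SE 0.10, adjusted p = 0.0129), which was lost without BALB/c 2 (adjusted p = 0.349), with DESeq2 (0.144), at the finer resolution (0.0707) and with assignment by marker score (0.164). In iNKT0-like cells Ctsw had 205 and 293 CPM in BALB/c and 127 and 155 CPM in B6 (log2 0.91, SE 0.23, adjusted p = 0.124). It was called with the replicate block (0.91, adjusted p = 0.0329), without the low-count filter (0.92, adjusted p = 0.00147) and without either B6 library, and by marker score the estimate was -0.49 (adjusted p = 0.161). Its interaction with iNKT2-like cells was 0.92 (SE 0.21, adjusted p = 0.0452), and it was lost in 5 of 11 other settings: without BALB/c 2 (adjusted p = 0.580), with DESeq2 (0.0582), without cells that had a myeloid marker UMI (0.0857), at the finer resolution (0.378) and by marker score (1.00).

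Ctsb and Ctsz were called in no class by edgeR with TMM scaling, the low-count filter and all 4 libraries, nor by DESeq2. Without the low-count filter Ctsz was called in iNKT2-like cells (adjusted p = 0.00640), and leaving out a B6 library gave calls of Ctsz in iNKT1-like and iNKT2-like cells and of Ctsb in iNKT2-like cells. Ctsb estimates lay between -0.29 (DP-like) and 0.11 (iNKT0-like). Ctsz had 67.04 and 64.2 CPM in BALB/c and 52.3 and 51.4 CPM in B6 iNKT2-like cells (log2 0.44, SE 0.10, adjusted p = 0.0630), without overlap. Cst3 over all kept cells had 173 and 245 CPM in BALB/c and 203 and 124 CPM in B6, with overlap. Its level also moved with myeloid cells: at the finer resolution, B cell-like cells with a myeloid marker UMI had 2324 and 6947 CPM of Cst3 in BALB/c (6 and 18 cells) and 5346 CPM in B6 1 (12 cells), and those without one had 112 and 129 CPM in BALB/c and 108 CPM in B6 1. Over all kept cells the 24 myeloid and dendritic markers summed to 5.70 and 13.3 CPM in BALB/c and 12.1 and 2.42 CPM in B6, with 16 to 18 of 24 detected and Fcgr1 at 0 in all 4 libraries. Without the cells that had a myeloid marker UMI, the Cst3 estimate was 0.35 (SE 0.12, adjusted p = 0.134), against 0.39 (SE 0.32, adjusted p = 0.473) with them.

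Lists of related genes were described by counts, beside the background given above. Of 16 other cathepsins 5 were tested over all kept cells, and Ctsf was higher in BALB/c (log2 1.64, SE 0.27, adjusted p = 0.0440). Ctse, an aspartic protease like Ctsd, was higher in BALB/c iNKT1-like cells, at 144 and 123 CPM in BALB/c and 28.2 and 54.7 CPM in B6 (log2 1.71, SE 0.26, adjusted p = 0.0185). In iNKT17-like cells it had 108 and 107 CPM in BALB/c and 25.2 and 43.6 CPM in B6 (log2 1.57, SE 0.19, adjusted p = 0.00152). It was 1 of 4 other cathepsins tested in each of these classes, and the remaining 3 did not pass.

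Among 26 other cystatins and cysteine protease inhibitors, 23 were in the files and at most 4 were tested in any class. Ctla2a, known in mice as an inhibitor of cathepsin L, was lower in BALB/c over all kept cells, at 31.5 and 50.9 CPM in BALB/c and 177 and 217 CPM in B6 (log2 -2.22, SE 0.27, adjusted p = 0.0285). In iNKT1-like cells it had 168 and 163 CPM in BALB/c and 287 and 346 CPM in B6 (log2 -0.90, SE 0.12, adjusted p = 0.00907). It was also lower in proliferating-like cells (log2 -2.30, adjusted p = 0.0217), and its close relative Ctla2b was lower in iNKT17-like cells (log2 -2.27, adjusted p = 0.0300). Reads shared by these near-identical genes could be split between them, so each value is uncertain.

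Of 11 activators and sorting genes, Lgmn, an asparaginyl endopeptidase that processes cathepsins, was lower in BALB/c iNKT17-like cells, at 13.2 and 19.1 CPM in BALB/c and 102 and 114 CPM in B6 (log2 -2.78, SE 0.20, adjusted p = 7.70e-05). It was lower in iNKT2-like cells too, at 10.9 and 13.2 CPM in BALB/c and 40.7 and 31.8 CPM in B6 (log2 -1.48, SE 0.21, adjusted p = 0.0232). Gnptg, a subunit of the enzyme that begins the mannose 6-phosphate tag, was lower over all kept cells (log2 -0.93, adjusted p = 0.0226) and in iNKT2-like cells (-0.59, adjusted p = 0.0460). The other 10, 8 and 9 genes of the list tested in all, iNKT2-like and iNKT17-like cells did not pass.

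Of 31 other lysosomal hydrolases and cofactors, all tested in iNKT2-like cells, 3 were higher and 1 was lower in BALB/c, against 3.28% higher and 4.21% lower among all genes, and 27 did not pass. The carboxypeptidase gene Scpep1 (log2 1.38, adjusted p = 0.0463) and the mannosidase gene Man2b1 (0.48, adjusted p = 0.0494) were among the higher ones. Ifi30, a lysosomal thiol reductase, was lower there, at 78.8 and 77.4 CPM in BALB/c and 182 and 157 CPM in B6 (log2 -1.02, SE 0.13, adjusted p = 0.0182). It was also lower in iNKT1-like (-2.25, adjusted p = 0.00299), iNKT17-like (-1.45, adjusted p = 0.00342) and proliferating-like cells (-0.87, adjusted p = 0.0234). Scpep1 was higher in iNKT1-like cells (2.19, adjusted p = 0.00657) and Lipa, the acid lipase, in iNKT17-like cells (0.68, adjusted p = 0.0337). Over all kept cells only Man2b1 passed among the 31 (log2 0.54, adjusted p = 0.0434). The list's median log2 fold change was 0.09 in iNKT2-like cells, where the median over all genes was -0.03.

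Of 27 lysosomal membrane and V-ATPase genes, Lamp2 was higher (log2 0.59, adjusted p = 0.0373) and the cholesterol exporter gene Npc1 lower (-0.99, adjusted p = 0.0363) over all kept cells, and 25 did not pass. Lamp1 was higher in iNKT17-like cells (0.75, adjusted p = 0.0217), and Npc1 was lower in iNKT1-like cells (-1.44, adjusted p = 0.0224). Of 15 lysosome regulators, 14 were tested over all kept cells and none was called by edgeR there or in any of the 6 classes. At an unadjusted p under 0.05 edgeR listed 6 of the 14, and 3582 of all 12882 genes tested. DESeq2 called Lamtor4 and Rptor, which are named after their values were seen, among 1756 genes that it called in all.

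Of 8 granule genes (granzymes that cathepsin C matures, and partners), Gzma was higher in BALB/c iNKT1-like cells, at 873 and 742 CPM in BALB/c and 371 and 282 CPM in B6 (log2 1.33, SE 0.19, adjusted p = 0.0138). Nkg7, a granule membrane protein gene, was lower in BALB/c iNKT2-like cells, at 5.39 and 11.8 CPM in BALB/c and 130 and 135 CPM in B6 (log2 -3.85, SE 0.36, adjusted p = 0.00821). It was also lower in iNKT17-like (-2.61, adjusted p = 0.00208) and proliferating-like cells (-4.13, adjusted p = 0.000333). In DP-like cells edgeR called it (adjusted p = 0.0218) from 1 and 0 UMIs in BALB/c and 10 and 31 in B6. Free RNA was not separated from that of the cells in any class, and no difference in expression is read from these counts. The same limit holds for Nkg7 in iNKT17-like cells. There B6 had 21.8 and 28.7 CPM, below the 29.1 and 45.0 CPM of B6 DP-like cells. Gzmb was lower in iNKT2-like cells (-4.40, SE 0.71, adjusted p = 0.0297). In proliferating-like cells Gzmb had 0 and 0 UMIs in BALB/c and 55 and 159 in B6, at least 43.3-fold lower in BALB/c against a floor of 3 counts over both BALB/c libraries. Gzma was lower in BALB/c proliferating-like cells (-3.69, adjusted p = 0.00502), the direction opposite to that in iNKT1-like cells, and the difference between these classes was not tested.

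Genes most like Ctsw, Ctsl and Cst7 were ranked by Pearson's r of log2(CPM + 1) over 12 sums (4 libraries in each of the 3 mature classes) among 5648 genes. The 12 sums share libraries and depth, and r is a description only. For Ctsw they were Klf3 (r = 0.989), Bcl2 (0.980), Vopp1 (0.979), Lrrk1 (0.977) and Zfp318 (0.975). For Ctsl they were Tmem189 (0.907), Vps33b (0.867), Lamp1 (0.860), Galnt12 (0.856) and Tbc1d10a (0.849), over sums in which Ctsl itself had 2.29 to 15.1 CPM. For Cst7 they were Rpl9 (0.863), Rps15a (0.810), Rpl37a (0.799), Rpl19 (0.795) and Rab6a (0.789).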

How the data were processed

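For each of the 4 libraries the authors deposited raw UMI counts, whole numbers by gene and cell barcode. Libraries were made with a 10x Genomics 5' v2 kit, per the labels' protocols. Per the submitters' processing notes the reads went through Cell Ranger 7.1.0 with mm10, whereas per the file headers 7.1.0 applies to B6 2 alone and 6.0.0 to the other 3 libraries. The treatment of intron reads, for which the default differs between these versions, is not stated. The reference genome derives from C57BL/6J, so reads that carry BALB/c alleles may map less well, which was not tested.

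Cells needed at least 500 genes, at least 1000 UMIs and at most 10% mitochondrial counts, and the barcodes ranked highest by Scrublet (0.8% per 1000 barcodes) were removed, a set rate rather than a measured one. Cells were clustered with scanpy 1.11.5 (2000 variable genes, 30 components, 15 neighbours, Leiden resolution 1.0), leaving out the 9 genes, the related lists, antigen receptor, MHC, Klra, cell cycle, ribosomal, mitochondrial and sex-linked genes. A cluster could be named when its markers had a mean log2 fold of at least 0.3, at least 40% of them exceeded 0.5 and at least 3 were detected. The name was withheld when another list had more markers among the cluster's 10 leading genes. It was also withheld from clusters of low depth with none of the list's markers among those genes. Rebuilt names may differ from the study's. Counts were summed per library and class and tested with edgeR 4.0.16 (TMM, filterByExpr, glmQLFit, glmQLFTest, strain as the term); interactions had the library as a block. The SE is the absolute log2 fold change over the root of F. These tests were checked on simulated data. DESeq2 1.42.0 was an alternative.

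The members and lists were chosen with earlier results of these data known, and the naming rule was tightened once after a cluster with B cell genes had been named proliferating. All 9 genes are named; of each related list, up to 4 called genes of lowest p are named over all kept cells and in each class (not for interactions), except 1 that is not reported here.

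Same-numbered libraries of the strains did not deviate together (correlation -0.266 over all kept cells and -0.0532 to 0.0198 in classes), and nothing in the labels pairs them.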

Additional observations from a re-analysis of the deposited data

Results flagged for a closer look

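The strain effects of several genes differed between classes by the interaction test (log2 effect in the named class minus that in iNKT2-like cells, edgeR). Against iNKT2-like cells, iNKT1-like cells differed by -0.80 for Cst7, 0.37 for Ctsc, 0.38 for Ctsd and 0.35 for Ctsw. iNKT17-like cells differed by -0.47 for Ctss, 0.75 for Ctsd and 2.33 for Ctsl. DP-like cells differed by 3.43 for Ctsl. iNKT0-like cells differed by 2.30 for Ctsl and 0.92 for Ctsw. The Ctsw value in iNKT0-like cells (adjusted p = 0.0452) was lost in 5 of 11 other settings, with its lowest value, 0.0023, by marker score.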

How the results depend on the processing

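Of 1133 recomputed tests of single members, 1020 kept their status, called or not called. Another 49 lost a call, 63 gained one and 1 reversed. Most of the 9 genes were uncalled in each comparison to begin with, so a kept status was mostly an uncalled one. Of the tests that kept their status, 80 changed sign with neither value called. The reversed value was Ctsd in iNKT0-like cells, -1.003 with cells assigned by marker score against 0.02. The cause was not tested. The number of genes called over all kept cells (952) was 1756 with DESeq2 and 38 with the replicate block. In iNKT1-like cells (493) it was 1386 without the low-count filter and 1017 with the block, and in iNKT2-like cells (879) 2695 without the filter. In iNKT17-like cells (467) it was 243 with DESeq2, 1104 without the filter and 778 with the block. In iNKT0-like cells (75) it was 46 with library size only, 522 without the filter, 204 with the block and 529 by marker score. In DP-like cells (124) it was 61 with DESeq2, 329 without the filter and 27 with the block. In proliferating-like cells (193) it was 897 without the filter, 338 with the block and 308 by marker score. DESeq2 gave 557, 193, 102 and 79 calls for the interactions of iNKT1-like (1330), iNKT17-like (435), DP-like (303) and iNKT0-like cells (145). The DP-like interaction had 191 calls at resolution 1.5 and 150 by marker score, and the iNKT0-like one had 290 without the filter, 42 at resolution 1.5 and 55 by marker score. Leaving out 1 library gave 0 to 5166 calls over all kept cells, 0 to 3531 in iNKT1-like, 21 to 5533 in iNKT2-like, 297 to 1751 in iNKT17-like, 17 to 838 in iNKT0-like, 33 to 733 in DP-like and 0 to 1674 in proliferating-like cells. For the interactions it gave 700 to 1419, 247 to 574, 123 to 255 and 123 to 332. The 0 calls arose without BALB/c 1 or BALB/c 2 over all kept cells (edgeR, 1386 and 1641 genes at an unadjusted p under 0.05) and in proliferating-like cells (675 and 541), and without BALB/c 2 in iNKT1-like cells (1099). The strain that then has 1 library is assumed to vary like the other. The replicate numbers are shared only as numbers. Crossing them, an alternative added after the data were seen, gave 777 calls over all kept cells. The difference in the share of cells with a Ctsl UMI (4.12 percentage points over all kept cells, 39.3 in DP-like cells) was 7.001 and 55.9 with thinning to 1500 UMIs and 9.34 over all kept cells with no thinning. Leaving out DP-like cells, and keeping the 3 mature classes alone, were also added after the data were seen. So were the groups of cells by Trav11, Rag1, Aqp11 and DP marker UMIs. Scaling by library size only moved the median log2 fold change of all genes to -0.13 in iNKT2-like, -0.11 in iNKT0-like and -0.12 in proliferating-like cells. Low counts of Ctsl in iNKT1-like, iNKT2-like and B6 iNKT17-like cells limit what can be seen there.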

Other observations

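Interferon-responding-like cells, too few in BALB/c (2 and 5 cells) to be compared, had 1520 and 1401 CPM of Ctsw and 158 and 149 CPM of Ctss in the 91 and 579 cells of B6 1 and B6 2, next to 1253 and 1204 CPM of Ctsw and 67.8 and 61.6 CPM of Ctss in B6 iNKT1-like cells.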
